A study of Sus scrofa with 92 samples.

Results

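The interleukin 10 (IL-10), STAT3 and SOCS3 axis was taken as 8 genes, the cytokine IL10, its receptor chains IL10RA and IL10RB, the related receptor IL6ST, the kinases JAK1 and TYK2, the transcription factor STAT3 and the inhibitor SOCS3. They were chosen by symbol through the pig Ensembl identifiers, and 6 of the 8 had a row among the 25322 identifiers of the count table. These were IL10 (ENSSSCG00000015652), IL10RA (ENSSSCG00000015085), IL6ST (ENSSSCG00000016916), JAK1 (ENSSSCG00000003809), TYK2 (ENSSSCG00000013648) and STAT3 (ENSSSCG00000017403). IL10RB and SOCS3 are not analysed here.

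The libraries are bulk RNA from liver biopsies of male Yorkshire-Landrace pigs, 18 fasted (FS) and 5 carbohydrate prefed (CPF). All animals of both groups were fasted overnight, and the CPF animals then received sugar syrup before anesthesia was induced. Every animal was splenectomized and underwent blunt chest injury, hemorrhage, a liver crush injury and resuscitation, and its liver was sampled once stable after surgical instrumentation (Baseline, B) and again after 2 hours (FR2), 8 hours (FR8) and 20 hours (FR20) of full resuscitation. No uninjured animals followed over the same hours are among the libraries, so the injury, the shock, the anesthesia and the passing of time cannot be told apart. The deposited values are raw read counts per gene. Levels are given here as CPM, counts relative to the library size after its scaling by the trimmed mean of M-values, and changes as log2 fold changes with their standard error (SE) from edgeR's quasi-likelihood test.

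IL-10 binds a receptor made of IL10RA and IL10RB chains, which carry the kinases JAK1 and TYK2. The kinases phosphorylate STAT3, STAT3 enters the nucleus, and among the genes it switches on is SOCS3, which in turn blocks signaling from IL6ST (gp130), the chain shared by the receptors for interleukin 6 and related cytokines. In the liver, IL-10 is known for damping the Kupffer cells and other macrophages, while STAT3 downstream of IL6ST drives the acute phase proteins of hepatocytes.

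Of 92 libraries, 88 were used. The Baseline libraries of FS animals 13, 14 and 16 were left out because they held almost no albumin transcript, between 0.197 and 52.7 CPM of their own total against at least 13202 in the 88 used, and the FR8 library of CPF animal 1 because almost no reads were counted in it. The used libraries held between 6877117 and 16613261 counts in all, with a median of 12071957. The FR2 and FR8 libraries of FS animal 8 were incomplete. Each had 0 counts on all 298 genes that RefSeq's Sscrofa11.1 annotation places on chromosome 9, all 209 on X and all 13 mitochondrial genes, counting genes with a median of at least 50 counts, but on only 2 and 3 of 5397 such genes of the other chromosomes apart from 8. In the other 86 libraries at most 5 of all 8260 such genes were at 0. IL10 and IL10RA lie on chromosome 9 in that annotation, so their zeros in these 2 libraries are missing counts. Their values are therefore given with and without them, in a fit of 86 libraries chosen after seeing the data. The other 4 members lie elsewhere and were counted there.

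STAT3 rose at FR2 and at FR8 in FS and in CPF animals, to between 2.35 and 3.52 times Baseline. JAK1 rose at FR2 in FS animals to 2.67 times Baseline and had fallen again by FR8. IL6ST rose less, and TYK2 fell at FR2 and returned. IL10RA changes were below 0 with and without the incomplete libraries, and under the fold threshold. They passed the adjusted p only without these libraries, at all 3 timepoints in FS animals and at FR8 in CPF animals. IL10 itself was low, with group medians between 0.345 and 1.09 CPM, and none of its changes passed the test. No difference between CPF and FS animals passed the test for any member.

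**Figure D1:**
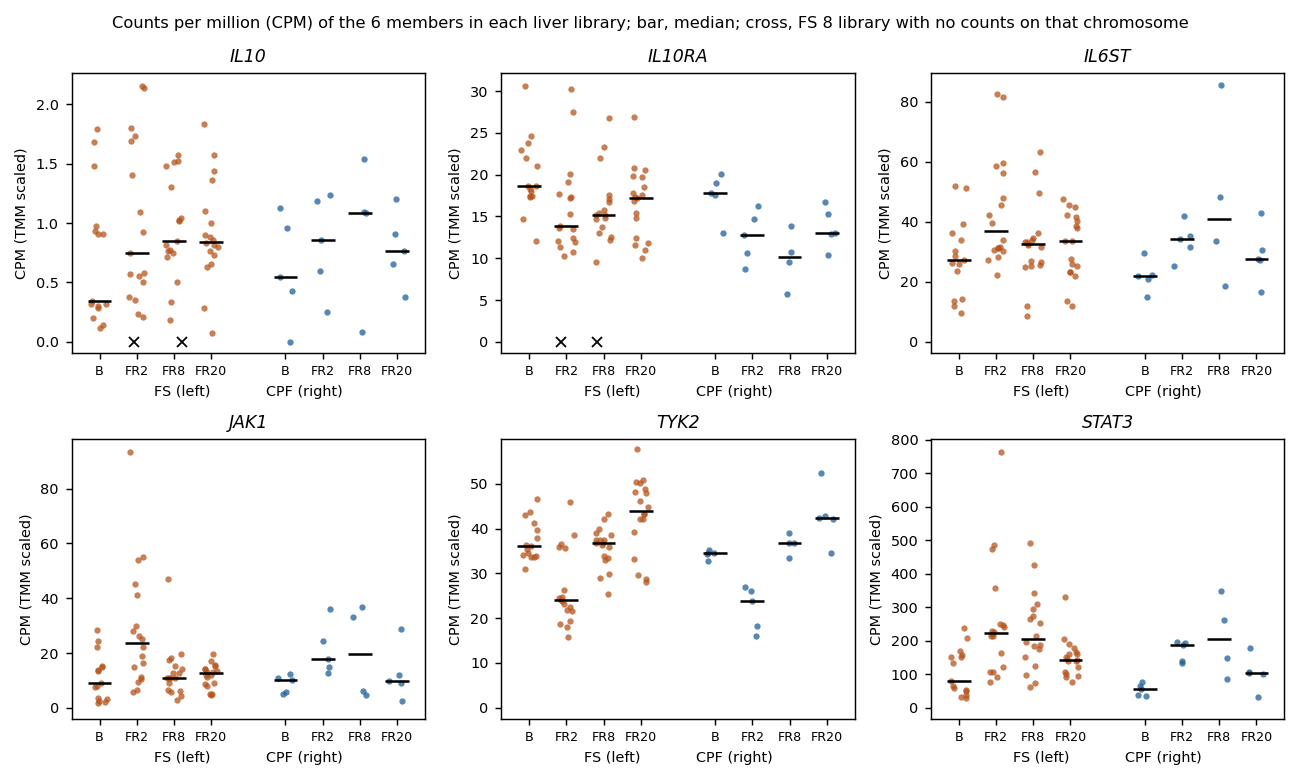
CPM of each member in each of the 88 libraries, FS animals in orange and CPF animals in blue, by timepoint, with the median as a bar. Crosses mark the 2 incomplete libraries of FS animal 8, left out of the medians of IL10 and IL10RA. STAT3 medians lie at 80.3, 223, 206 and 144 CPM at B, FR2, FR8 and FR20 in FS animals, and those of TYK2 are lowest at FR2.

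IL10, the ligand, was close to the limit of detection in every group. In FS animals it had between 1 and 23 counts at Baseline with a median of 4, and 5 of the 15 libraries were at or under 3 counts, the floor used here. Without FS animal 8 its counts ran from 2 to 29 at FR2 (median 10) and from 2 to 25 at FR8 (median 13), and at FR20 from 1 to 31 (median 12.5). The FS ranges overlapped almost entirely, although the median CPM went from 0.345 at Baseline to 0.746, 0.847 and 0.843 at FR2, FR8 and FR20. In CPF animals 1 to 5 in order, IL10 stood at 0.958, 0.43, 1.12, 0.543 and 0 CPM at Baseline and at 0.861, 1.18, 1.23, 0.596 and 0.251 CPM at FR2. At FR8 the 4 animals with a library (2 to 5) had 1.1, 1.08, 0.0799 and 1.54 CPM, and at FR20 all 5 had 0.908, 0.657, 0.766, 1.2 and 0.376 CPM.

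The fitted IL10 change from Baseline in FS animals was 0.33 (SE 0.39, adjusted p = 0.514) at FR2, 0.36 (SE 0.38, adjusted p = 0.485) at FR8 and 0.44 (SE 0.38, adjusted p = 0.393) at FR20. Without the incomplete libraries it was 0.56 (SE 0.35, adjusted p = 0.198), 0.59 (SE 0.35, adjusted p = 0.174) and 0.54 (SE 0.34, adjusted p = 0.22). Within animals, IL10 was higher than at Baseline in 9 of 14 FS animals at FR2, 11 of 14 at FR8 and 9 of 15 at FR20, with FS animal 8 counted only at FR20. In CPF animals the changes were 0.47, 0.87 and 0.46 with SE between 0.69 and 0.76. Group medians of IL10 lay between 4 and 13.5 counts, and its log2 changes within single FS animals ran from −2.04 to 2.67 over the 3 timepoints without the incomplete libraries.

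IL10RA, the chain that binds IL-10 and carries JAK1, is known mainly from blood cells and macrophages. In FS animals it ranged from 12.1 to 30.6 CPM at Baseline (median 18.7). Without FS animal 8 it ranged from 10.3 to 30.2 at FR2 (median 13.9) and from 9.61 to 26.7 at FR8 (median 15.2), and at FR20 from 10.1 to 26.9 (median 17.2). The groups overlapped, with some of the FR2 libraries under the lowest Baseline library. CPF animals 1 to 5 had 18.9, 13.1, 20, 17.8 and 17.6 CPM at Baseline and 14.7, 16.2, 10.6, 12.8 and 8.77 CPM at FR2. At FR8, CPF animals 2 to 5 had 9.5, 13.9, 10.7 and 5.75 CPM, and each was below its own Baseline. At FR20 the 5 CPF animals had 13, 10.4, 16.8, 15.2 and 12.9 CPM, again each below its own Baseline.

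With all 88 libraries the change of IL10RA in FS animals was −0.55 (SE 0.25, adjusted p = 0.0685) at FR2, −0.53 (SE 0.25, adjusted p = 0.0783) at FR8 and −0.35 (SE 0.24, adjusted p = 0.262) at FR20, none past the test. Without the 2 incomplete libraries the errors were smaller, and the changes were −0.34 (SE 0.12, adjusted p = 0.0197), −0.32 (SE 0.12, adjusted p = 0.0275) and −0.28 (SE 0.12, adjusted p = 0.0473). In CPF animals the change at FR8 was −0.82 in both fits, with an adjusted p of 0.251 (SE 0.48) with the incomplete libraries and 0.0124 (SE 0.23) without them, since all libraries share the estimate of the spread. At FR2 and FR20 in CPF animals it was −0.47 and −0.36 and did not pass in either fit. Without the incomplete libraries IL10RA was below Baseline in 11 of 14 FS animals at FR2, 12 of 14 at FR8 and 10 of 15 at FR20. None of these changes reached the fold threshold.

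IL6ST, the signal chain of the interleukin 6 receptor family and a source of STAT3 activation outside IL-10, ranged in FS animals from 9.57 to 51.8 CPM at Baseline (median 27.2), from 22.1 to 82.5 at FR2 (median 36.8), from 8.71 to 63.3 at FR8 (median 32.6) and from 12.1 to 47.7 at FR20 (median 33.6). The groups overlapped widely, but every one of the 15 FS animals with a Baseline library was higher at FR2 than at Baseline. The change was 0.75 (SE 0.14, adjusted p = 2.07e-05) at FR2, a rise under the fold threshold. At FR8 and FR20 it was 0.33 at both timepoints (adjusted p = 0.0533 and 0.0568). CPF animals 1 to 5 had 14.8, 21.8, 29.7, 21 and 22.2 CPM at Baseline and 25.3, 31.5, 34.4, 35.1 and 42 CPM at FR2, each higher than its own Baseline, but the change of 0.62 (SE 0.25, adjusted p = 0.144) did not pass. At FR8 the values spread out, to 18.7, 48.2, 85.6 and 33.5 CPM in CPF animals 2 to 5, and the change of 0.86 (SE 0.27, adjusted p = 0.0246) passed the adjusted p. Without CPF animal 2, the lowest of these, the change was 1.18, past the fold threshold too. Leaving out any of the other 4 CPF animals instead gave changes from 0.46 to 0.94, under that threshold. At FR20 the 5 CPF animals had 27.7, 16.7, 30.6, 42.8 and 27.3 CPM, and the change of 0.35 (SE 0.25, adjusted p = 0.503) did not pass.

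JAK1, the kinase bound to IL10RA and also to IL6ST, ran in FS animals from 1.89 to 28.3 CPM at Baseline (median 9.02), from 5.64 to 93.5 at FR2 (median 23.7), from 2.75 to 46.9 at FR8 (median 10.9) and from 4.5 to 19.7 at FR20 (median 12.6). FR2 stood above the other timepoints, though with overlap, and JAK1 was higher at FR2 than at Baseline in 14 of 15 FS animals, the exception being FS animal 8. The change was 1.42 (SE 0.25, adjusted p = 9.53e-06) at FR2 against 0.36 (SE 0.25, adjusted p = 0.247) at FR8 and 0.39 (SE 0.25, adjusted p = 0.236) at FR20. Between FR2 and FR8, JAK1 fell by 1.05 (SE 0.23, adjusted p = 0.000449), and it was lower in 17 of 18 FS animals, a fall no longer called without FS animal 3 or FS animal 5. Between FR2 and FR20 it fell by 1.03 (SE 0.23, adjusted p = 0.000414). With the 3 Baseline libraries without albumin kept in, the rise at FR2 was 0.97 (SE 0.27, adjusted p = 0.00477), just under the fold threshold.

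In CPF animals 1 to 5, JAK1 stood at 5.64, 12.4, 11, 5.02 and 10.3 CPM at Baseline and at 12.5, 24.4, 14.9, 36 and 17.8 CPM at FR2, where all 5 were higher and each lay above every Baseline value. The change of 1.09 (SE 0.44, adjusted p = 0.149) nevertheless did not pass the test. At FR8 the animals parted, with 4.75, 33.3, 36.8 and 6.16 CPM in CPF animals 2 to 5, and at FR20 the 5 had 12, 2.63, 9.96, 28.8 and 8.9 CPM. The changes were 0.68 (SE 0.49, adjusted p = 0.368) and 0.17 (SE 0.45, adjusted p = 0.889).

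TYK2, the kinase carried by IL10RB, fell at FR2 where STAT3 rose. In FS animals it ranged narrowly from 31 to 46.5 CPM at Baseline (median 36.1), from 15.8 to 45.9 at FR2 (median 24), from 25.5 to 43.3 at FR8 (median 36.8) and from 28 to 57.8 at FR20 (median 44). At FR2 most FS libraries lay under the lowest Baseline library, while a few stayed in its range. The change was −0.53 (SE 0.11, adjusted p = 8.66e-05) at FR2, with TYK2 lower in 14 of 15 animals, −0.06 (SE 0.11, adjusted p = 0.667) at FR8 and 0.20 (SE 0.11, adjusted p = 0.145) at FR20. From FR2 it rose by 0.47 (SE 0.10, adjusted p = 0.000452) to FR8 and by 0.73 (SE 0.10, adjusted p = 2.25e-06) to FR20.

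CPF animals 1 to 5 were alike at Baseline, with 34.5, 34.4, 32.8, 34.5 and 35.3 CPM of TYK2. At FR2 they had 27, 18.2, 26, 16 and 23.9 CPM, all below every Baseline value. At FR8 CPF animals 2 to 5 had 33.3, 36.8, 38.9 and 36.7 CPM, and at FR20 the 5 had 42.9, 42.1, 42.4, 34.6 and 52.4 CPM. The change was −0.64 (SE 0.19, adjusted p = 0.0467) at FR2, 0.12 (SE 0.21, adjusted p = 0.754) at FR8 and 0.31 (SE 0.19, adjusted p = 0.424) at FR20. From FR2 to FR20, TYK2 rose by 0.96 (SE 0.19, adjusted p = 0.00455) and in all 5 CPF animals. None of the TYK2 changes reached the fold threshold.

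STAT3, the transcription factor on which the axis converges, ranged in FS animals from 29.4 to 239 CPM at Baseline (median 80.3), from 76.9 to 764 at FR2 (median 223), from 60.7 to 492 at FR8 (median 206) and from 75.6 to 330 at FR20 (median 144). Groups overlapped because the Baseline libraries themselves spread widely, and the highest single value was at FR2. STAT3 was higher than its own Baseline in 13 of 15 FS animals at FR2, 14 of 15 at FR8 and 11 of 15 at FR20. The rise was 1.33 (SE 0.23, adjusted p = 4.8e-06) at FR2 and 1.23 (SE 0.22, adjusted p = 1.4e-05) at FR8. At FR20 the change of 0.73 (SE 0.22, adjusted p = 0.00881) passed the adjusted p but not the fold threshold.

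The STAT3 levels of FS animals thus ran, from low to high, B, FR20, FR8 and FR2. Of the neighbors in this order, FR20 and FR8 did not differ past the test (−0.50, SE 0.21, adjusted p = 0.134), nor did FR8 and FR2 (−0.10, SE 0.20, adjusted p = 0.771), whereas FR20 was below FR2 (−0.59, SE 0.21, adjusted p = 0.019). The 3 Baseline libraries left out for their lack of albumin held 144, 182 and 327 CPM of their own total of STAT3, against a median of 62.1 in the 15 used. With them kept in, the rise was 1.03 (SE 0.23, adjusted p = 0.000501) at FR2 and 0.96 (SE 0.23, adjusted p = 0.00115) at FR8, the latter under the fold threshold, and the change of 0.43 (SE 0.23, adjusted p = 0.17) at FR20 no longer passed.

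In CPF animals 1 to 5, STAT3 stood at 56.2, 36.3, 76.7, 38.8 and 65.3 CPM at Baseline and at 192, 139, 135, 198 and 187 CPM at FR2. Every FR2 value lay above every Baseline value. CPF animals 2 to 5 had 85.3, 263, 347 and 149 CPM at FR8, each again above all Baseline values, and at FR20 the 5 had 99.7, 33.1, 102, 177 and 107 CPM, where only CPF animal 2 was under its own Baseline. The rise was 1.66 (SE 0.39, adjusted p = 0.0127) at FR2 and 1.81 (SE 0.42, adjusted p = 0.00423) at FR8, and the change at FR20 was 0.79 (SE 0.39, adjusted p = 0.299). The call at FR2 was lost without CPF animal 1, 2, 4 or 5, with changes between 1.56 and 1.68 and adjusted p between 0.053 and 0.0794, and also without animal terms (1.64, adjusted p = 0.055).

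**Figure D2:**
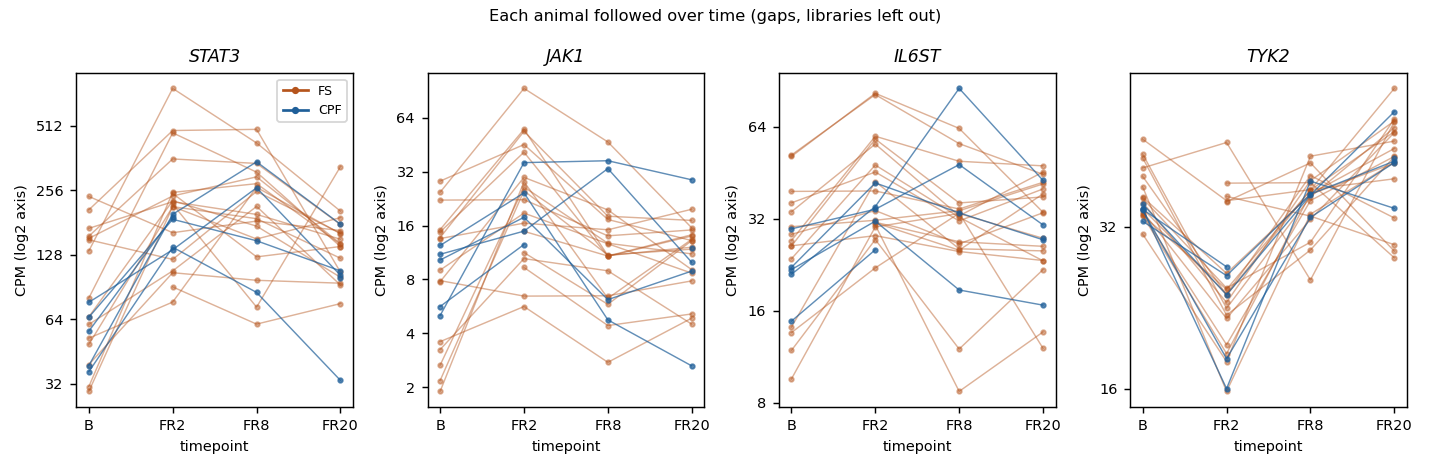
CPM of STAT3, JAK1, IL6ST and TYK2 on a log2 axis against timepoint, with 1 line for each animal, orange for FS and blue for CPF. JAK1 peaks at FR2 in most FS animals and is lower at FR8 in 17 of 18, STAT3 stays high to FR8, and TYK2 is lowest at FR2.

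Counted over the 6 members, a gene was called where its adjusted p was below 0.05 and its level differed by 1 or more on the log2 scale. At FR2vB (FR2 against Baseline) in FS animals 2 members were called, STAT3 and JAK1, where 11% of the 13667 genes tested were called. At FR8vB 1 was called, STAT3, against 11.8% of all genes, and at FR20vB 0 against 9.94%. By the adjusted p alone 4, 1 and 1 members passed, beside 41.4%, 39.3% and 33.8% of all genes. Without the 2 incomplete libraries these counts were 5, 3 and 2, beside 5854, 5508 and 4979 of 13650 genes. By DESeq2 with all 88 libraries they were 5, 2 and 1, beside 6092, 5766 and 5088 of 13667 genes. In CPF animals STAT3 alone was called at FR2vB and at FR8vB, where 2.41% and 8.83% of all genes were called, and 0 members at FR20vB against 0.702%. By the adjusted p alone these counts were 2, 2 and 0, beside 3.41%, 13.3% and 0.893%. Without the incomplete libraries they were 2, 3 and 0, beside 574, 2141 and 190 of 13650 genes. The median change of the 6 members was 0.54 at FR2vB in both FS and CPF animals, where the medians over all genes were −0.04 and −0.02.

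Between the later timepoints in FS animals, JAK1 was the 1 member called at FR8vFR2 and again at FR20vFR2, beside 5.96% and 8.59% of all genes, and 0 were called at FR20vFR8 against 1.46%. By the adjusted p alone 3, 4 and 0 members passed in these comparisons, beside 28.4%, 35.9% and 6.39% of all genes. In CPF animals 0 members were called at FR8vFR2, FR20vFR2 and FR20vFR8, where 4.92%, 5.99% and 0.022% of all genes were called. There 1, 3 and 1 members had an unadjusted p under 0.05 by edgeR, beside 3632, 3789 and 1484 of the 13667 genes. TYK2 alone passed the adjusted p at FR8vFR2 (0.76, SE 0.21, adjusted p = 0.0215) and at FR20vFR2, where 7.21% and 10.4% of all genes did, and 0 members at FR20vFR8 (0.022%). At FR20vB and FR20vFR8, where no member was called in either feeding group, edgeR gave 2 and 2 members an unadjusted p under 0.05 in FS animals (IL6ST and STAT3, STAT3 and TYK2) and 1 and 1 in CPF animals (STAT3 both times), and DESeq2 also called 0. Of the 13667 genes, 5939 and 2962 had an unadjusted p under 0.05 by edgeR in FS animals. In CPF animals 2249 and 1484 did. All comparisons with Baseline share the Baseline libraries.

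**Figure D3:**
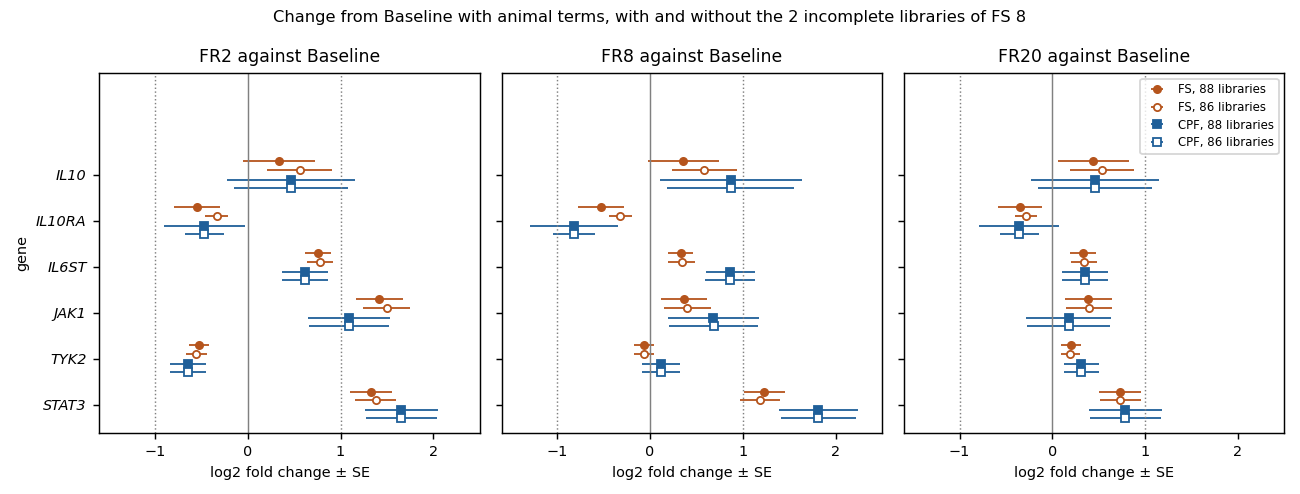
Log2 fold change from Baseline ± SE of each member at FR2, FR8 and FR20, orange circles for FS and blue squares for CPF animals, filled for the fit of all 88 libraries and open for the fit without the 2 incomplete ones. Dotted lines mark the fold threshold of 1. IL10RA keeps its side of 0 and has shorter error bars in the open symbols, and STAT3 lies past 1 at FR2 and FR8.

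The study asked whether feeding before shock alters the response, and for these genes the CPF change minus the FS change was set against its error. For STAT3 it was 0.33 (SE 0.44) at FR2, 0.58 (SE 0.47) at FR8 and 0.05 (SE 0.45) at FR20. For JAK1 it was −0.33 (SE 0.50), 0.32 (SE 0.55) and −0.21 (SE 0.52), and the largest for IL6ST and for IL10 were at FR8, 0.54 (SE 0.30) and 0.51 (SE 0.86). All adjusted p were at least 0.999. No member and 0% of the 13667 genes were called in any of the 3 interactions, with 0 members at an unadjusted p under 0.05 and 0 members called by DESeq2. Over all genes 397, 468 and 521 had an unadjusted p under 0.05.

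At Baseline itself STAT3 ranged from 36.3 to 76.7 CPM in the 5 CPF animals, inside the FS range of 29.4 to 239 CPM, and CPF over FS was −0.98 (SE 0.44, adjusted p = 0.619). It was the only member with an unadjusted p under 0.05 there (0.0382), and 0.0257% of 11688 genes were called. The STAT3 difference was −0.59 (SE 0.40, adjusted p = 0.96) at FR2, −0.12 (SE 0.41, adjusted p = 0.999) at FR8 and −0.53 (SE 0.29, adjusted p = 1) at FR20. At these 3 timepoints 0 members were called, 0% of all genes were, 0 members had an unadjusted p under 0.05, and DESeq2 called 0 members. Without the incomplete libraries IL10RA was lower in CPF than in FS animals at FR8 by an unadjusted p of 0.00596 (−0.70, SE 0.23), with an adjusted p of 0.716.

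Of the 23 animals, 3 FS and 2 CPF animals died. With a term for the feeding group, STAT3 in animals that died over those that lived differed by 0.15 (SE 0.43) at Baseline, −0.48 (SE 0.41) at FR2, −0.11 (SE 0.40) at FR8 and −0.16 (SE 0.29) at FR20. No member was called at any of the 4 timepoints, 0 members had an unadjusted p under 0.05, DESeq2 called 0 members, and 0% of all genes were called. The largest difference of a member was that of JAK1 at Baseline, 0.59 (SE 0.51, adjusted p = 0.782).

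STAT3, JAK1 and IL6ST also varied together from animal to animal within a timepoint. Across the 15 FS Baseline libraries, Pearson's r of log2 CPM was 0.85 between STAT3 and JAK1, 0.86 between STAT3 and IL6ST and 0.90 between JAK1 and IL6ST. At FR2, FR8 and FR20 it was 0.76, 0.76 and 0.60 for STAT3 and JAK1, and 0.75, 0.83 and 0.68 for STAT3 and IL6ST, over 17, 17 and 18 FS libraries. IL10 did not go along, with r against STAT3 between −0.31 and 0.08 in these 4 groups, and IL10RA went the other way, between −0.48 and −0.38. Over the 86 complete libraries of all groups, r with STAT3 was 0.77 for JAK1 and 0.79 for IL6ST. Some genes outside the axis had a higher r with STAT3, given next over 88 libraries. Points of 1 plot share the scaling of their library, and no test was made.

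Likeness to STAT3 over all 88 libraries was ranked among genes with a symbol, the members apart. The most alike were PSMD1, which encodes a proteasome subunit (r = 0.85), the translation factor EIF4G2 (r = 0.85) and the receptor NOTCH2 (r = 0.84). Next came the translocon subunit SEC61A1 (r = 0.84) and the palmitoyltransferase ZDHHC5 (r = 0.82). The 88 libraries share animals, depth and timepoints. NOTCH2 changed by 1.401 (SE 0.19, adjusted p = 9.26e-08) at FR2vB in FS animals, and the other 4 by 0.54 to 0.96. In CPF animals none of the 5 passed the test at FR2vB, where NOTCH2 changed by 1.08 (SE 0.34, adjusted p = 0.0582).

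The other genes of the pathway were taken from lists of ligands, receptors, kinases, inhibitors and targets. Of 16 other ligands, 10 had a row and only 4 enough counts to be tested. At FR2vB in FS animals 3 of these were called, where 11% of all genes were. Oncostatin M (OSM), an IL6ST ligand made by neutrophils and macrophages, was called higher (adjusted p = 0.000498), with a median of 1 count at Baseline and 7 counts at FR2. Since 14 of the 15 Baseline libraries were at or under the floor of 3 counts, no fold is given. CLCF1, another IL6ST ligand, rose by 1.30 (SE 0.25, adjusted p = 4.31e-05). CTF1 was called lower, and with medians of 3 and 1 counts no fold is given for it either. In CPF animals edgeR and DESeq2 called 0 of the 4, with 2, 1 and 1 at an unadjusted p under 0.05 at FR2vB, FR8vB and FR20vB. Of all genes edgeR called 2.41%, 8.83% and 0.702% there. Over the 13667 genes, 2735, 3878 and 2249 were at an unadjusted p under 0.05 by edgeR.

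Among 8 tested of 17 other receptors, OSMR, the partner chain of IL6ST for oncostatin M, was called higher in 5 of the 6 comparisons with Baseline. Its mean level in FS animals went from 34.9 CPM at Baseline to 131, 116 and 80.3 CPM at FR2, FR8 and FR20, with a change of 1.97 (SE 0.27, adjusted p = 9.33e-08) at FR2, 1.77 (SE 0.27, adjusted p = 1.06e-06) at FR8 and 1.23 (SE 0.28, adjusted p = 0.000361) at FR20. In CPF animals it was 1.59 (SE 0.47, adjusted p = 0.0423) at FR2 and 1.61 (SE 0.49, adjusted p = 0.0215) at FR8. IL6R, the chain that binds interleukin 6, fell at FR20 in FS animals by 1.01 (SE 0.22, adjusted p = 0.000205). IL27RA, a further partner of IL6ST, rose there by 1.07 (SE 0.17, adjusted p = 1.47e-06). Of the 6 other kinases and STATs tested, edgeR and DESeq2 called 0 in each comparison with Baseline. Of all genes edgeR called between 0.702% and 11.8% there. By edgeR 1, 1 and 2 of the 6 had an unadjusted p under 0.05 at FR2vB, FR8vB and FR20vB in FS animals. In CPF animals 0 had. Over all 13667 genes these numbers were 6668, 6506 and 5939 in FS animals and 2735, 3878 and 2249 in CPF animals. JAK2 alone of the 6 passed the adjusted p, at FR2vB in FS animals (0.57, SE 0.14, adjusted p = 0.000936).

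With SOCS3 not analysed, 10 of 15 other inhibitors were tested. PTPN1, a phosphatase acting on JAK2 and TYK2, rose at FR2 in FS animals by 1.17 (SE 0.32, adjusted p = 0.00265), from a mean of 37.5 to 86.4 CPM, and stood at 24.6 CPM at FR8. In CPF animals PTPN2, a phosphatase of JAK1 and STAT3, rose by 1.29 (SE 0.32, adjusted p = 0.016) at FR2, and SOCS5 by 1.24 (SE 0.39, adjusted p = 0.0271) at FR8. Means rose from Baseline in the other feeding group too, without a call. PTPN1 went from 39.0 to 92.1 CPM at FR2 in CPF animals. In FS animals PTPN2 went from 13.5 to 25.4 CPM at FR2 and SOCS5 from 2.53 to 3.96 CPM at FR8. At FR8vB and FR20vB in FS animals and at FR20vB in CPF animals edgeR called 0 inhibitors, with 7, 4 and 2 at an unadjusted p under 0.05, and DESeq2 called 0, 0 and 1 (SOCS5). Of all genes edgeR called 11.8%, 9.94% and 0.702% there. At an unadjusted p under 0.05 were 6506, 5939 and 2249 of the 13667 genes. The median change of the list was 0.29 at FR2vB in FS animals, where that of all genes was −0.04.

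Genes known to be switched on by STAT3 were tested for 13 of 20 listed. In FS animals 3 were called higher at FR2, 6 at FR8 and 3 at FR20, and none lower, in comparisons where 11%, 11.8% and 9.94% of all genes were called in either direction. In CPF animals 3 were called higher at FR2, 5 at FR8 and 0 at FR20, where 5 had an unadjusted p under 0.05 by edgeR and DESeq2 called 2 (CRP and LBP). Of all genes 2.41%, 8.83% and 0.702% were called there. By edgeR 2249 of the 13667 genes had an unadjusted p under 0.05 at FR20 in CPF animals. The median change of the 13 was 0.62, 0.74 and 0.46 in FS animals and 0.98, 0.78 and 0.43 in CPF animals, where medians over all genes lay between −0.04 and 0.05. At FR2 in FS animals the called genes were the protease inhibitor TIMP1, the NF-kB cofactor BCL3 (1.46, SE 0.30, adjusted p = 7.99e-05) and the survival factor MCL1 (1.61, SE 0.21, adjusted p = 3.37e-08). At FR8 in FS animals they were TIMP1, BCL3 and the secreted acute phase proteins CRP, LBP, FGB and FGG. FGB, a fibrinogen chain, rose by 1.10 (SE 0.36, adjusted p = 0.0127) from a mean of 6229.96 to 13628 CPM. Without the incomplete libraries the FGB rise was 1.0005 (SE 0.22, adjusted p = 0.000226), barely past the fold threshold. At FR20 CRP, LBP (1.03, SE 0.25, adjusted p = 0.000846) and TIMP1 were still called.

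TIMP1 is among the genes with no counts in the incomplete libraries. Its change in FS animals was 2.09 (SE 0.54, adjusted p = 0.00147) at FR2, 1.71 (SE 0.52, adjusted p = 0.00711) at FR8 and 2.41 (SE 0.54, adjusted p = 0.000352) at FR20 with them, and 2.26, 1.87 and 2.37 without them. In CPF animals it was 2.96 (SE 0.90, adjusted p = 0.0489) at FR2 and 3.03 (SE 0.94, adjusted p = 0.0245) at FR8. MCL1 and MYC (1.28, SE 0.37, adjusted p = 0.0381) were the other genes called at FR2 in CPF animals, and BCL3, FGG, LBP and CRP (1.78, SE 0.44, adjusted p = 0.00707) the others at FR8.

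Of 10 genes that IL-10 is known to induce in macrophages, 6 were tested. IL1R2, the decoy receptor for interleukin 1, SBNO2, a transcriptional corepressor, and IL4R were called at FR2 in FS and in CPF animals. Of all genes 11% were called at FR2 in FS animals and 2.41% in CPF animals. IL1R2 rose in FS animals by 2.44 (SE 0.39, adjusted p = 1.29e-06) at FR2, 1.62 (SE 0.38, adjusted p = 0.000572) at FR8 and 2.00 (SE 0.40, adjusted p = 7.86e-05) at FR20, from a median of 5 counts to 20, 19 and 20.5. In CPF animals it rose by 2.49 (SE 0.64, adjusted p = 0.0197) at FR2. IL4R rose by 1.65 (SE 0.27, adjusted p = 1.76e-06) in FS and 1.75 (SE 0.47, adjusted p = 0.0263) in CPF animals at FR2. SBNO2 was still called at FR8, by 1.04 in FS animals and by 1.38 (SE 0.46, adjusted p = 0.0362) in CPF animals. The phosphatase DUSP1 fell in FS animals by 1.36 (SE 0.31, adjusted p = 0.000397) at FR8 and by 1.15 (SE 0.32, adjusted p = 0.00366) at FR20.

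Of 13 genes listed for inflammation, among them the NF-kB inhibitor NFKBIA, 11 were tested. In FS animals edgeR and DESeq2 called 0 of them at FR2, FR8 and FR20. Of all genes edgeR called 11%, 11.8% and 9.94% there. By edgeR 4, 2 and 2 of the 11 had an unadjusted p under 0.05 in FS animals. Over all 13667 genes these numbers were 6668, 6506 and 5939. The median changes of the 11 were 0.26, −0.19 and −0.16 at FR2, FR8 and FR20. In CPF animals the prostaglandin synthase PTGS2 rose by 2.32 (SE 0.66, adjusted p = 0.0354) at FR2. PTGS2 has no counts in the incomplete libraries of FS animal 8, so its FS changes at FR2 and FR8 include these zeros. Without these libraries the CPF rise was 2.32 (SE 0.60, adjusted p = 0.0198). NFKBIA, the inhibitor of NF-kB, fell in CPF animals by 1.23 (SE 0.35, adjusted p = 0.0144) at FR8 and by 1.32 (SE 0.32, adjusted p = 0.0274) at FR20. In CPF animals edgeR called 2.41%, 8.83% and 0.702% of all genes at FR2, FR8 and FR20.

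**Figure D4:**
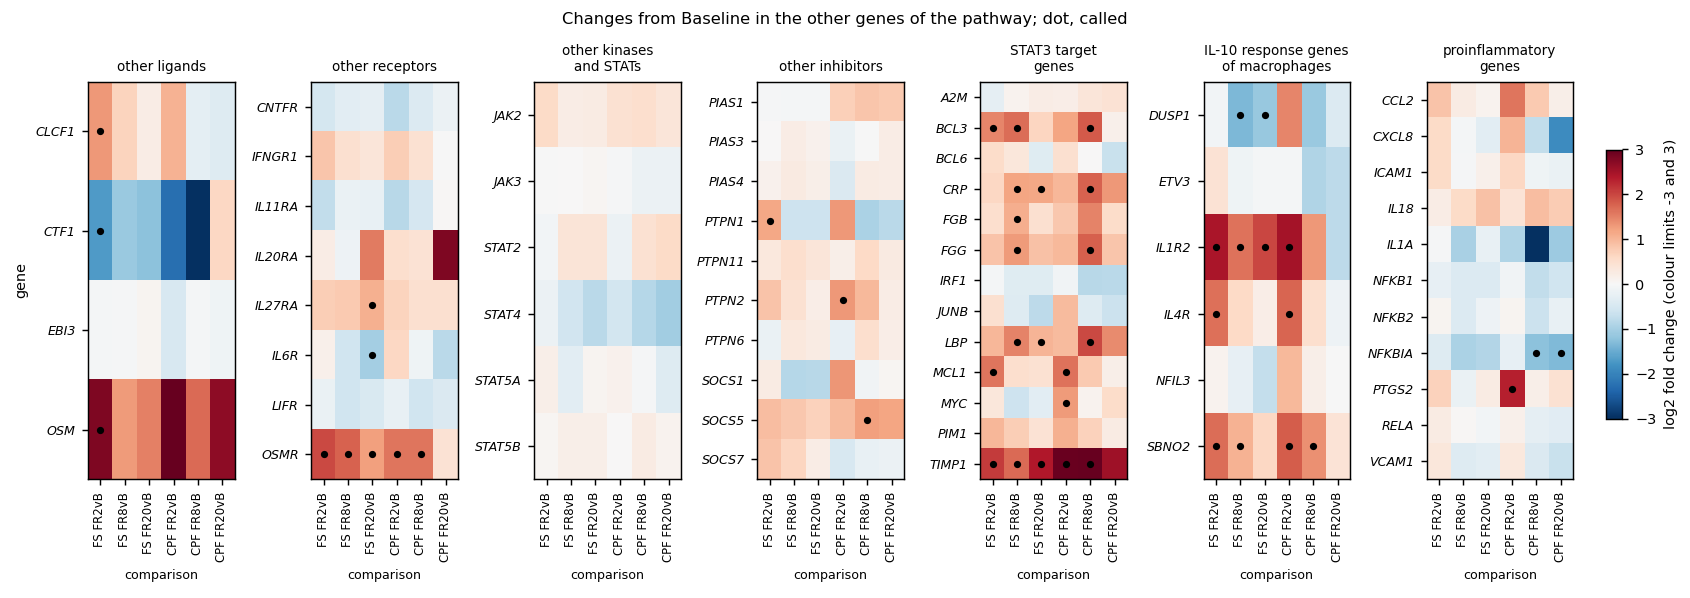
Log2 fold change from Baseline of the tested genes of 7 lists, by gene and comparison, in color with limits at −3 and 3, with a dot where the gene was called. The rows of OSMR, TIMP1 and IL1R2 are red with dots in all 3 FS columns, and the kinases and STATs other than the members hold no dot.

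Markers of other cells moved at the same timepoints. The summed level of the 5 tested neutrophil markers in FS animals ran from 0.285 to 15.1 CPM at Baseline and from 2.14 to 55.8, 1.01 to 31.8 and 0.51 to 54.9 CPM at FR2, FR8 and FR20 without the incomplete libraries, and 4 of the 5 were called higher at FR2, where 11% of all genes were called. In CPF animals it ran from 1.03 to 4.07 CPM at Baseline and from 14.8 to 100.2 CPM at FR2, with 3 of 5 called beside 2.41% of all genes. The most abundant, S100A9, averaged 4.6002 CPM, and MMP8 and CD177 had a median of 0 counts. Over the 86 complete libraries the log2 sum had r = 0.43 with STAT3, 0.37 with JAK1 and −0.53 with TYK2. Other lists had r as far from 0. STAT3 had −0.49 with the Kupffer cell and macrophage list and −0.48 with the stellate cell and fibroblast list. JAK1 had −0.57 with the B and plasma cell list and −0.41 with the stellate list, and TYK2 had −0.50 with the hepatocyte list and 0.50 with the stellate list. The 6 tested Kupffer cell and macrophage markers, led by CD14 with 808 CPM, summed to between 1061 and 2187 CPM at Baseline and between 679 and 1590.2 CPM at FR2 in FS animals, and the hepatocyte list had 4 of 7 markers called lower at FR8 and at FR20 in FS animals, beside 11.8% and 9.94% of all genes. For IL10RA the highest r was with the T and NK cell markers (0.67), whose 7 genes, led by NKG7 at 11.2 CPM, summed to between 27.6 and 72.7 CPM at Baseline and between 22.8 and 82.9 CPM at FR2 in FS animals. In CPF animals this sum ran from 35.0 to 54.9 CPM at Baseline and from 21.1 to 32.7 CPM at FR8, without overlap. At FR8vB in CPF animals 3 of the 7 were called lower, beside 8.83% of all genes, and IL10RA changed by −0.82. The part of these cells in the changes was not tested. In bulk liver fewer cells of a type and less RNA per cell cannot be told apart.

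The most abundant gene of the hepatocyte list, ALB, averaged 79704 CPM. Those of the other lists were HBB (erythroid, 270 CPM), COL1A2 (stellate cells and fibroblasts, 206 CPM), PECAM1 (endothelial, 80.9 CPM), EPCAM (bile duct, 16.9 CPM), POU2AF1 (B and plasma cells, 5.25 CPM) and ACTA1 (striated muscle, 3.55 CPM).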

How the data were processed

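RNA of 92 liver biopsies from 23 pigs was sequenced. The authors deposited raw counts of reads per gene, not normalized, which per the labels' processing notes came from CASAVA 1.8.2, TopHat 1.5.0, SAMtools and HTSeq on Sscrofa10.2, with edgeR 3.2.4 listed as well. Whether counting used strand is not given in the sources used here. Symbols were found for 12504 of 25322 identifiers.

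Totals of the 88 libraries used ran from 6877117 to 16613261 counts, which limits the precision of genes with few counts such as IL10. Counts were scaled by TMM in edgeR 4.0.16 (R 4.3.3, limma 3.58.1), and a gene was kept if its CPM summed to 10 or more. Timepoints were compared in 1 quasi-likelihood fit (two-sided) with a term for each animal, which the labels link across timepoints. Residuals of libraries of 1 animal had a median correlation of 0.205 over 126 pairs, against −0.016 between animals. CPF and FS animals, and animals that died and lived, were compared at each timepoint apart. P-values were adjusted by Benjamini-Hochberg over all genes tested, and a call needed an adjusted p below 0.05 with a change of 1 or more on the log2 scale, either way. Correlations used log2 CPM with a prior count of 2. The floor was set at 3 counts a library. Since IL10 passed the filter in every fit, no separate permutation test was made for it. Alternatives were DESeq2 1.42.0, a likelihood ratio test, other size factors and filters, no animal terms, and leaving out or adding libraries. The fitting was tested on simulated data, and Python 3.11.15 with numpy 2.4.6, pandas 2.3.3 and matplotlib 3.10.9 was used for tables and plots.

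The members, the lists and the rule for named genes were chosen with earlier results of these data known. The rule named all members and the called genes with the highest and the lowest change of each list in each comparison with Baseline. It also named the 5 genes with a symbol most like STAT3, the members apart. Further, it named the most abundant gene of each marker list and the genes behind counts of 5 or fewer. Of the genes named, FGG and those of the 6 STAT3 targets at FR8 that the rule does not give were chosen after their values were seen.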

Additional observations from a re-analysis of the deposited data

Results flagged for a closer look

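The Baseline library of FS animal 16, 1 of the 3 left out for their lack of albumin, held more of 5 of the 6 members than any of the 15 FS Baseline libraries used, in CPM without scaling. STAT3 stood at 327 CPM against a highest value of 265 in the libraries used, and JAK1 at 58.7 against 26.4. IL6ST stood at 72.4 against 49.99 and IL10 at 2.31 against 1.64, while TYK2, at 46.7 against 45.6, was just above. The albumin transcript was at 0.312 CPM in that library. What tissue or mixture it holds was not tested. Among the CPF groups, no library stood apart in the 24 sets checked for outliers, 6 members at each timepoint, where chance gives about 1 in 20.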

How the results depend on the processing

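No alternative reversed the direction of a called change. With the 3 Baseline libraries without albumin kept in (91 libraries), and also with the almost empty library (92), members called at FR2vB in FS animals went from 2 to 1 and at FR8vB from 1 to 0. With the 88 libraries and the adjusted p alone, the counts were 4 at FR2vB and 1 at FR20vB in FS animals, 2 at FR2vB and 2 at FR8vB in CPF animals, 3 at FS FR8vFR2 and 1 at CPF FR8vFR2. Without the replicate block, the animal terms, the count at CPF FR2vB was 0, and it changed no other count of called members by over 1.5 times. Leaving out 1 animal at a time gave 0 to 1 called members at CPF FR2vB (0 without CPF 1, 2, 4 or 5), 1 to 2 at CPF FR8vB (2 without CPF 2) and 0 to 1 at FS FR8vFR2 (0 without FS 3 or FS 5). Over 10 changes of single members that passed the adjusted p, 208 alternative values kept their side of the call, 9 lost it and 1 gained it. Some of the 10 were under the fold threshold and so not called to begin with. These were IL6ST at FS FR2vB and CPF FR8vB, TYK2 at FS and CPF FR2vB, and STAT3 at FS FR20vB. For them, keeping their side meant staying uncalled, even where the adjusted p was lost, as for STAT3 at FS FR20vB with 91 libraries. JAK1 at FS FR2vB was 0.97 and 0.98 and STAT3 at FS FR8vB 0.96 and 0.95 with 91 and 92 libraries. Low counts limit IL10, with group medians of at most 13.5 counts, and OSM and CTF1. The fit of 86 libraries was chosen after seeing the data.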
